A study of Mus musculus with 4 samples.

Results

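Transcripts of neuronal transcription factors were examined among the RNAs bound by IMP2 in embryonic mouse brain. They comprised the E-protein genes Tcf4 and Tcf12, the 4 nuclear factor I genes (Nfia, Nfib, Nfic and Nfix), St18 and Zic1, taken by gene symbol. Of these 8 genes, 6 carried an IMP2 cluster, a peak of overlapping crosslinked RNA tags, and together they held 39 of the 1828 distinct clusters of the series (2.13%). Nfic and Nfix had no cluster. Across the genome, 3.47% of the 21900 protein-coding genes had at least 1 cluster. The 8 genes and the gene lists below were chosen with earlier results of these data known, so such shares are descriptions only.

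The RNA came from brain tissue of Swiss Webster mice at E14 (embryonic day 14), with no genotype or treatment named in the labels. HITS-CLIP joins a protein to the RNA it touches with ultraviolet light and recovers the RNA with an antibody, here against IMP2 (gene Igf2bp2). The series held 4 libraries, 2 with the letter R and 2 with M in their titles, and the labels leave the letters unexplained; a mouse and a rabbit antibody are named in the protocol. A single list of clusters stood for all of them, so no value below has a replicate error, and differences between clusters or genes are descriptions without a test.

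IMP2 belongs to a family of cytoplasmic proteins that bind mRNA, often in its 3' untranslated region (3' UTR), and affect where, how long and how well the mRNA is used. E proteins are broadly expressed basic helix-loop-helix (bHLH) factors that pair with tissue-restricted bHLH partners at E-box DNA, while Id proteins hold them off DNA. NFI proteins bind DNA as dimers and are known in the developing brain for the onset of glial differentiation, the maturation of neurons and the formation of the corpus callosum. St18 (also called Myt3) is a zinc finger factor of the MYT1 family, and Zic1 is a zinc finger factor of the dorsal neural tube, the cerebellum and the meninges.

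The height of a cluster is read here as its largest number of overlapping tags, and its fold is a second score of the authors, relative to a level that the file does not define. The list began at a height of 18 and a fold of 2, so weaker contacts would not appear. The number of tags per library is unknown, and tag counts without molecular identifiers also hold PCR copies. Transcript levels were not measured, so a tall cluster on an abundant RNA and a strongly bound site on a rare one cannot be told apart. The same holds for fewer cells of a type and less RNA per cell. Among markers of cell types, 6 of 10 neuronal genes had a cluster (Dcx, Stmn2, Map2, Gap43, Elavl3 and Map1b, but not Tubb3, Elavl4, Nefm or Rbfox3). For radial glia it was 2 of 9, namely Vim and Ccnd2, the latter with 17 clusters up to a height of 77. The counts were 2 of 9 for meninges and mesenchyme (Col1a1 and Col3a1) and 2 of 5 for erythroid cells (Hba-a1 and Hbb-y). They were 0 of 6 for the oligodendrocyte lineage, 0 of 4 for endothelium and 0 of 4 for microglia. Of all protein-coding genes, 3.47% had a cluster.

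The clusters were spread very unevenly over the 8 genes. Tcf4 and Nfib had 12 clusters each and Nfia had 10, so that these 3 genes held 34 of the 39 (87.2%). Zic1 had 3, and Tcf12 and St18 had 1 each. At least 10 clusters were found in 23 genes of the whole list, or 0.105% of protein-coding genes, and at least 2 in 342 genes (1.56%). Only 8 listed genes had more clusters than Tcf4 and Nfib, and 18 had more than Nfia. No cluster overlapped one assigned to another gene.

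By region, 37 of the 39 clusters lay in 3' UTRs (94.9%, exact Clopper-Pearson 95% interval 82.7 to 99.4, for counting error only). This was close to the 94.1% of the whole list. The other 2 were coding-sequence (CDS) clusters, 1 in Nfia and 1 in Nfib, and no cluster lay in a 5' UTR. Clusters of the same transcript share its abundance, so they are not independent of each other.

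**Figure D1:**
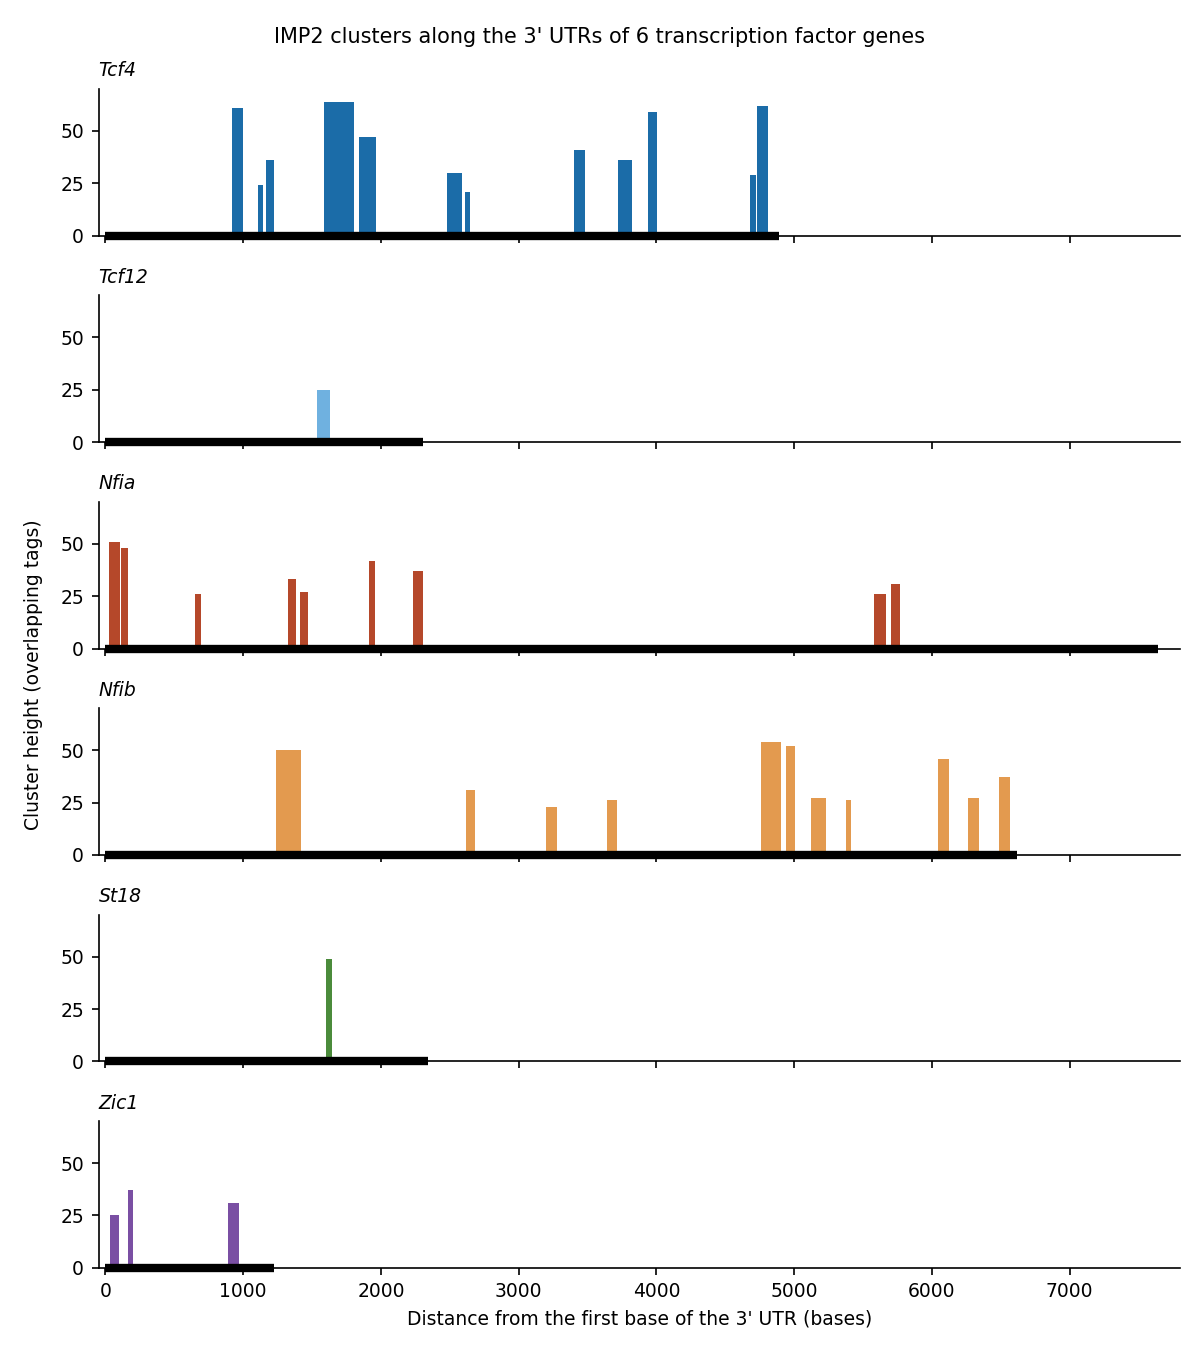
Each panel shows the 3' UTR of 1 gene as a black line, drawn to scale in bases from its first base, with a bar for each IMP2 cluster whose width is that of the cluster and whose height is the cluster height in overlapping tags. Tcf4 and Nfib carried clusters up to their 3' end, Nfia had a stretch of 3273 bases with none, and Tcf12 and St18 had 1 cluster each; the 2 CDS clusters are not drawn.

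Tcf4 encodes an E protein (E2-2) of neural progenitors and young neurons. It carried the tallest cluster of the group. Its 3' UTR spans 4891 bases of chromosome 18 (69842731 to 69847621 on the plus strand, build mm9 as for all positions here), and both listed transcripts share it. From 5' to 3', its 12 clusters had heights of 61, 24, 36, 64, 47, 30, 21, 41, 36, 59, 29 and 62. All of them lay in the 3' UTR. The 4 tallest clusters, at 59 to 64, were thus not neighbours but had midpoints at 19.6%, 34.7%, 81.3% and 97.5% of the 3' UTR length, counted from the stop codon, with lower clusters between them.

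The tallest Tcf4 cluster (height 64, fold 6.84) spanned 69844317 to 69844536 and, at 220 bases, was also the widest of all 39. The cluster at 69843649 to 69843727 was slightly lower, with a height of 61, but had the highest fold of the gene, 10.3. The last cluster (height 62, fold 7.87) ended 84 bases before the annotated 3' end. Of all clusters in the list, 94.3% to 95.7% were lower than each of these 4. The first 918 bases of the 3' UTR held no cluster.

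Some neighbouring clusters of Tcf4 were close together. The gaps between them ran from 6 to 758 bases, and 4 of the 11 gaps were at most 50 bases. Joining clusters across such gaps left 8 clusters, or 1.64 per kb of 3' UTR in place of 2.45. The clusters covered 1018 bases, which is 20.8% of the 3' UTR. Among the 729 listed genes with a 3' UTR interval, 75 had a higher covered share and 67 had a longer 3' UTR.

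Tcf12, which encodes the E protein HEB of proliferating neural progenitors, had a single and low cluster. It lay on chromosome 9 at 71692738 to 71692834 (minus strand), with a height of 25 and a fold of 3.68. Only 25.1% of the clusters in the list were lower. The cluster was 97 bases wide, began 1533 bases after the stop codon and covered 4.2% of a 3' UTR of 2309 bases. The 2 E-protein transcripts thus lay far apart in this list: even the median Tcf4 cluster, at 38.5, was taller than that of Tcf12, and 2 of the 12 Tcf4 clusters were lower than it. The 3' UTR of Tcf4 is also the longer of the pair.

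The lists of partners and inhibitors of E proteins gave small counts. Of 7 E-protein and Id genes, only Tcf4 and Tcf12 carried a cluster, leaving out Tcf3 and the 4 Id genes. Of 22 bHLH genes that include class II partners of E proteins and neural Hes-type and Olig factors, 2 (9.09%) had a cluster, against 3.47% of all protein-coding genes. Among them was Neurod6, a gene of postmitotic cortical neurons, with 1 cluster of height 23 and fold 3.46 in its 3' UTR.

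Both listed NFI genes carried many clusters, and they lie on the same chromosome in opposite directions. Nfib has a 3' UTR of 6621 bases on chromosome 4 at 81936077 to 81942697 (minus strand), and that of Nfia has 7641 bases at 97777927 to 97785567 (plus strand). These are among the longest of the list: 27 listed genes had a longer 3' UTR than Nfib and 17 a longer one than Nfia. Nfib has a second, shorter 3' UTR interval of 6509 bases in other transcripts, and all its 11 clusters in the 3' UTR were listed for the 3 transcripts.

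Nfib encodes the NFI protein needed for normal lung and forebrain development. In its 3' UTR the heights were 50, 31, 23, 26, 54, 52, 27, 26, 46, 27 and 37 from 5' to 3'. The highest cluster (height 54, fold 9.75) lay at 81937791 to 81937936. It was followed after 31 bases by the cluster with the highest fold of the gene (height 52, fold 11.2), at 81937691 to 81937759. This pair, the first cluster (height 50, 183 bases wide) and the one of height 46 stood above the remaining 7, which reached 37 at most.

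Clusters of Nfib leaned toward the 3' end. Of its 11 clusters in the 3' UTR, 8 had a midpoint beyond 50% of the length. The median position was 75.1%, against 48.2% over all 3' UTR clusters of the list. No cluster lay in the first 1238 bases, while the last one ended 54 bases before the annotated 3' end. The clusters covered 15% of the 3' UTR, at 1.66 per kb, and 117 of the 729 genes had a higher covered share.

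Nfia encodes the NFI protein best known for switching neural progenitors toward glia. In its 3' UTR the heights were 51, 48, 26, 33, 27, 42, 37, 26 and 31 from 5' to 3'. The highest cluster (height 51, fold 9.49), at 97777951 to 97778029, began only 24 bases after the stop codon. The second (height 48, fold 8.91) followed 10 bases later. The tallest clusters of Nfia therefore stood directly behind the coding sequence, where Nfib had none.

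Clusters of Nfia leaned toward the stop codon. Of 9 clusters in the 3' UTR, 7 lay in the first 29.7% of its length, after which 3273 bases held none. The last 2 clusters, of heights 26 and 31, came next, and the final 1870 bases held none again. The median position was 18.9%, against 48.2% over all 3' UTR clusters of the list. The clusters covered 7.45% of the 3' UTR, at 1.18 per kb, the lowest covered share of the 23 genes with at least 10 clusters.

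Nfia and Nfib also held a close pair of clusters at nearly the same relative position, a likeness noticed after the values had been seen and not tested. In Nfia the pair had midpoints at 73.6% and 75.1% of the 3' UTR, 33 bases apart, with heights of 26 and 31. In Nfib the pair had midpoints at 73.0% and 75.1%, 31 bases apart, with heights of 54 and 52. These are the highest clusters of Nfib but among the lower ones of Nfia. Counted from the annotated 3' end, the pairs ended 1870 and 1614 bases before it. The sequences under them were not analysed here, and whether some tags could map to both genes was not tested.

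**Figure D2:**
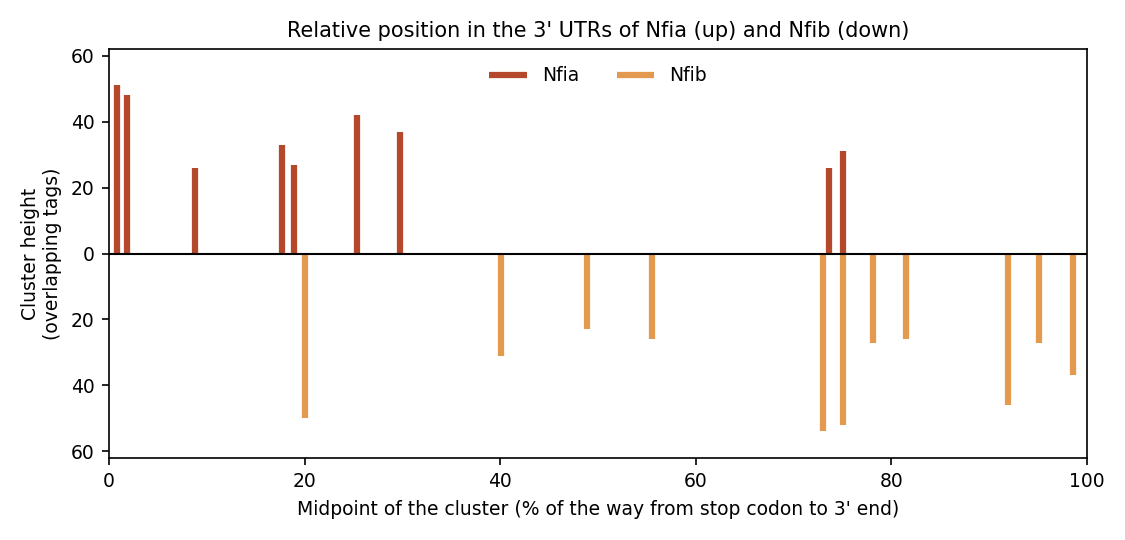
Lines mark the midpoint of each 3' UTR cluster of Nfia (upward) and Nfib (downward), as a percentage of the 3' UTR length counted from the stop codon, and their length is the cluster height in overlapping tags. In Nfia, 7 of 9 clusters lie in the first 29.7%, and in Nfib 8 of 11 lie beyond 50%, with a pair of clusters near 73% to 75% in both genes.

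The CDS clusters of both NFI genes were low. That of Nfia, at 97708345 to 97708370 on chromosome 4, had a height of 21 and a fold of 4.26 and was the narrowest of the 39 clusters, at 26 bases. It ended exactly at the last base of its exon (97708242 to 97708370) and was listed for 2 of the 3 transcripts. That of Nfib, at 81973652 to 81973747, had a height of 28 and a fold of 5.44. It lay within an exon of 185 bases (81973633 to 81973817) and was listed for all 3 transcripts. In the whole list, 8 clusters reached the edge of their interval and 68 genes (0.311% of protein-coding genes) had a CDS cluster.

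St18 had a single narrow cluster with the highest fold of the group. It lay on chromosome 1 at 6850283 to 6850323 (plus strand), 41 bases wide, with a height of 49 and a fold of 12.7. Of all clusters, 88.0% were lower and 97.6% had a lower fold. It began 1601 bases after the stop codon and covered 1.75% of a 3' UTR of 2340 bases. The 3' UTRs of St18 and Tcf12 thus have nearly the same length and hold 1 cluster each at nearly the same relative position (69.3% and 68.5%), but the St18 cluster was the taller and narrower. Dividing height by fold gives 3.86 for St18, the lowest of the 39 clusters, against 6.79 for Tcf12. If the fold is the height over a reference level, that level differs between them, but how the fold was computed is not stated.

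Of the MYT1 family, which holds repressors of non-neuronal genes, Myt1l carried a cluster too and Myt1 did not. The cluster of Myt1l, a gene of nearly all neurons, had a height of 47 and a fold of 9.72. Thus 2 of 3 family members, St18 among them by choice, had 1 cluster each, against 3.47% of protein-coding genes with any cluster. Their heights of 49 in St18 and 47 in Myt1l were above the list's median of 30, as were 46.9% of all clusters.

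Zic1 had 3 clusters in a short 3' UTR of 1224 bases (chromosome 9, 91255183 to 91256406, minus strand). From 5' to 3' they had heights of 25, 37 and 31 and folds of 3.33, 5.35 and 7.40, so the highest cluster did not have the highest fold. The first began 32 bases after the stop codon, and the second, at 91256204 to 91256240, followed after 70 bases. The third lay 690 bases further on. They covered 14.7% of the 3' UTR at 2.45 per kb, a density close to that of Tcf4. Of the 8 ZIC and GLI genes, Zic1 was the 1 with a cluster (12.5%, against 3.47% of protein-coding genes). Among the markers of meninges and mesenchyme, Col3a1 had 3 clusters, the highest at 29 with a fold of 18.6. Col1a1 had 1 of height 20 with a fold of 20, and the other 7 had none. The part of such cells in the Zic1 clusters was not tested.

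Heights of the 39 clusters ranged from 21 to 64 with a median of 33, against a median of 30 for the list. Of them, 23 (59.0%) were taller than the list's median, as were 46.9% of all clusters. Every listed gene except Tcf12 had such a cluster, that is 5 of the 8, against 1.87% of protein-coding genes. The 8 genes were chosen with earlier results of these data known, so this contrast is not independent of that choice. The median fold was 5.78 against 5.40 for the list, and the median width 74 bases against 53. The medians of height and fold were thus slightly above those of the list and that of width was higher, near the list's upper quartile of 79 bases, while heights within Tcf4, Nfia and Nfib each spanned most of the group's range. No cluster of these genes came near the list's maximum of 107.

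**Figure D3:**
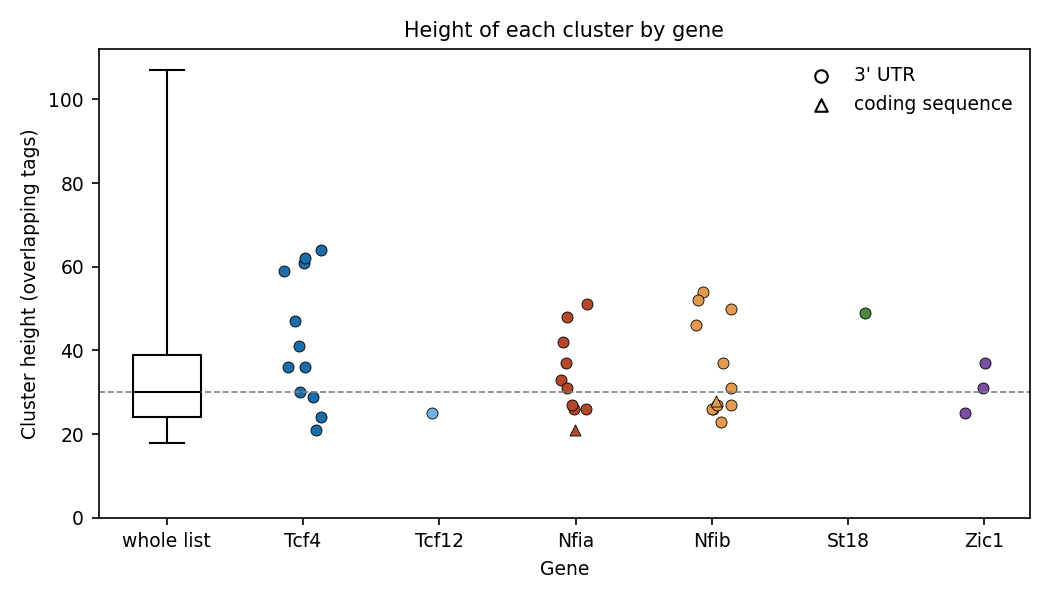
Points are the heights in overlapping tags of single clusters of each gene, circles in the 3' UTR and triangles in the coding sequence; the box shows the median and quartiles of all 1828 clusters, its whiskers their full range, and the dashed line their median of 30. Tcf4 spans 21 to 64, Nfib 23 to 54 and Nfia 21 to 51, and the Tcf12 cluster lies below the line.

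Height and fold ranked the clusters in a similar order. Over the 39 clusters Spearman's rho was 0.87, and over all 1828 it was 0.59; both scores come from the same tags, and clusters of a gene share its transcript. Clusters that ranked differently by the scores included the tallest Tcf4 cluster, whose fold of 6.84 was lower than those of 5 shorter clusters of the same gene. Others were the third Zic1 cluster (height 31, fold 7.40) and the Nfia cluster of height 26 and fold 6.38. For the latter, 29.6% of the list was lower in height and 65.9% in fold. The St18 cluster was high on both scores (88.0% and 97.6%). Wider clusters tended to be taller (Pearson's r of 0.45 over the 39 clusters and 0.60 over the list).

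**Figure D4:**
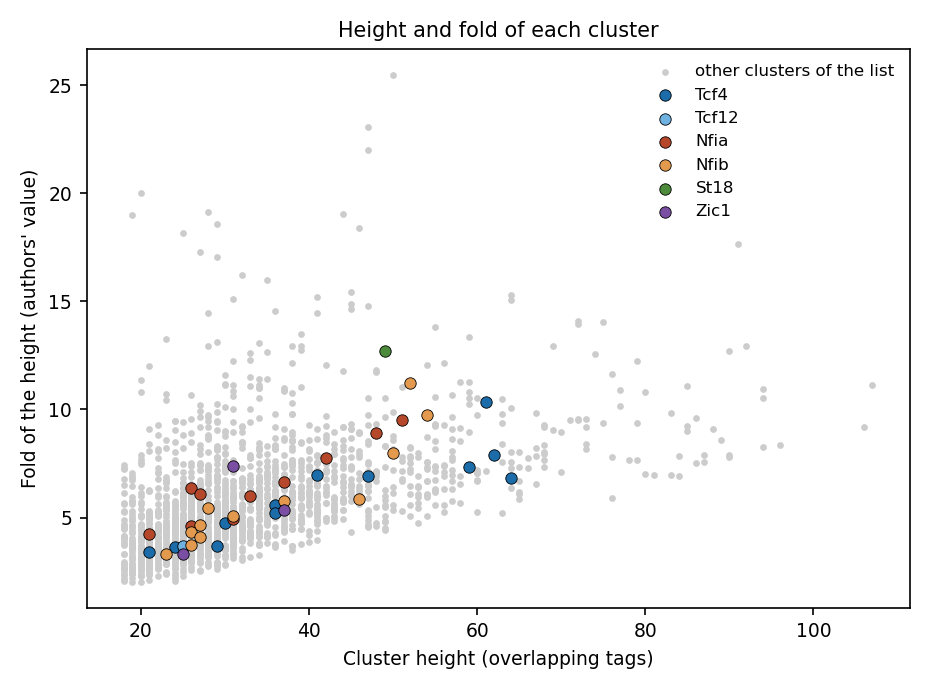
Each point is a cluster, with its height in overlapping tags on the horizontal axis and the authors' fold on the vertical axis; grey points are the rest of the list. St18 has the highest fold of the group (12.7) at a height of 49, and the tallest Tcf4 cluster (64) has a fold of 6.84.

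Among the 23 genes with at least 10 clusters, Tcf4, Nfib and Nfia had neither the tallest nor the densest clusters. The highest cluster of these 23 genes had a median of 64, from 41 to 96, and by it Tcf4 shared rank 12, Nfib had rank 18 and Nfia rank 20. Their covered shares of 20.8%, 15% and 7.45% compare with a median of 25.5%, and per kb they ranked 15, 19 and 22. Over the 729 listed genes with a 3' UTR interval, Spearman's rho between the number of 3' UTR clusters and 3' UTR length was 0.23. Unlisted genes are not part of this value, and 419 of the 761 listed genes had just 1 cluster. The median 3' UTR was 4447 bases in the 23 genes, against 1998 in the list. Genes with more clusters also had a taller highest cluster (rho 0.62 over 761 genes). A maximum over 12 clusters is therefore not on the same footing as the single value of St18 or Tcf12.

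**Figure D5:**
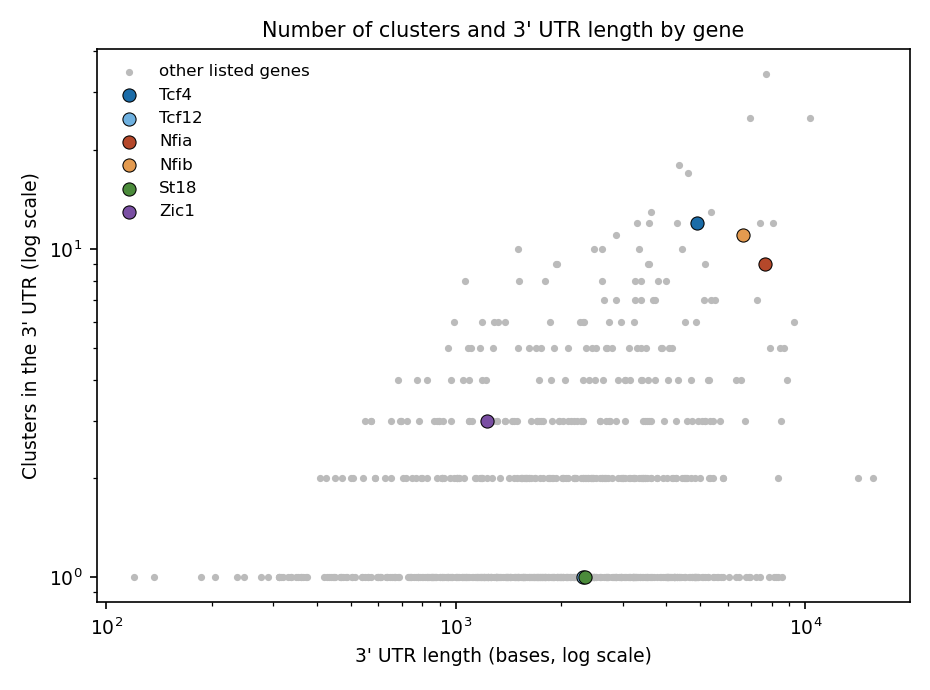
Each point is a listed gene with at least 1 cluster in the 3' UTR, with the length of its longest 3' UTR interval in bases and its number of 3' UTR clusters, both on log axes. Nfia and Nfib are among the longest 3' UTRs with 9 and 11 clusters, Tcf4 has 12 in 4891 bases, Zic1 has 3 in 1224 bases, and the points of Tcf12 and St18 nearly coincide at 1 cluster.

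By number of clusters and highest cluster, the genes most like Tcf4 were Map2 (12 clusters, highest 64), which encodes a dendritic microtubule protein, and the membrane glycoprotein gene Gpm6a (9 and 64). Those nearest to Nfib were the kinesin genes Kif1b (12 and 53) and Kif5c (13 and 55). Those nearest to Nfia were the imprinted gene Peg10 (9 and 50) and the cannabinoid receptor gene Cnr1 (8 and 51). For St18 they were the GABA transaminase gene Abat (1 and 50) and Casd1 (1 and 48). Zic1 tied with 4 genes, of which Acly and Dhx15 come first in the alphabet, and Tcf12 with 18, starting with Atp13a3 and B230219D22Rik. Likeness was the sum of the differences between 2 percentile ranks over 761 genes, in the single list that stands for all libraries.

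Other neuronal transcription factors gave a setting for these values. The fixed list of such factors held 64 genes, of which Neurod2 is also in the bHLH list. Of the 64, 20 (31.2%) had at least 1 cluster, against 3.47% of protein-coding genes, and 12 of them had at least 2. Their 67 clusters had a median height of 33, the same as that of the 39. Sox11, a factor of newborn neurons, stood out with 25 clusters and a maximum of 90. Each of the other 19 had fewer clusters than Tcf4, Nfib or Nfia. Sox12 had the next tallest cluster (69), and the Wnt effector gene Tcf7l2 reached 50, with 4 clusters in each gene.

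Further listed factors had between 1 and 5 clusters. Of these, the EBF family gene Ebf3 had 5 (highest 40) and Zeb2, a gene of neural crest and cortical neurons, had 3 (33), including 2 in the CDS. Bcl11a (35), Bcl11b (33), Zeb1 (36), Meis2 (27), Scrt2 (30) and Runx1t1 (36) had 2 each. Tbr1 (28), Foxp2 (20), Lhx2 (25), Pbx3 (37), Nr2f1 (24) and Nr2f2 (23) had 1 each. Most of these factors were thus closer to Tcf12, St18 or Zic1 in number than to Tcf4 and the NFI genes. Over all 6 lists, 29 of 107 transcription factor genes were listed (27.1%), and 23 of 99 (23.2%) without the 8 genes described here.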

How the data were processed

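Per the labels' protocols, IMP2 was immunoprecipitated after ultraviolet crosslinking and benzonase digestion, and bands of protein-RNA complexes were sequenced. Per the submitters' processing notes, Bowtie and FastQC were used and the build is mm9; what called the peaks, at which thresholds, and whether the 4 libraries were pooled could not be learned from the sources used here. As deposited by the authors, the data are 1 list of 2865 lines, with a cluster height (a signal of overlapping tags, not normalized as far as stated) and a fold (a ratio). The deposited overlap of cluster and region gave no printed value. Lines were reduced to 1828 clusters in 761 genes. Starts were made 1-based, and regions were assigned by the cluster midpoint. Transcripts were matched by accession (1088) or name (11) to RefSeq names of GRCm38, without its coordinates. Positions refer to the longest deposited 3' UTR interval. Python 3.11.15, pandas 2.3.3 and SciPy 1.17.1 were used, and the functions were tested on simulated lists. The genes and lists were chosen with earlier results of these data known. Genes named were the 8 genes, listed members of the fixed transcription factor lists (a few are counted but not reported by name here), and the 2 genes nearest to each by the ranks of cluster number and highest cluster; Dcx and other marker genes come from fixed marker lists. Alternatives were taller clusters, higher folds, at least 2 clusters, joining at up to 50 bases, other region, position and interval rules, and leaving out each gene.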

Additional observations from a re-analysis of the deposited data

How the results depend on the processing

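With only clusters taller than the list's median the 39 clusters became 23, and with only those of a fold above the median 22; joining clusters at most 50 bases apart gave 31. Of the 6 listed genes, 5 kept a taller cluster and 4 had at least 2 clusters. Per gene, the joining left Tcf4 with 8, Nfia with 7 and Nfib with 11, and the taller clusters were 8, 6 and 6; Tcf12 had 0 under both filters. The median height of 33 lay between 31 and 36 on leaving out each gene. Taking only the highest cluster of each gene gave a median of 50, against 31 over the listed genes. The median fold, a different measure, was 5.78 against 5.40 for the list. The share in 3' UTRs was 94.9% under each region rule. The median position of 53.8%, against 48.2% over all 3' UTR clusters of the list, ranged from 36.8% (without Nfib) to 68.9% (without Nfia). No paired analysis was possible because no value of a single library was analysed here, and for the same reason no library could be left out. Unknown library depth limits what a missing cluster means: weaker contacts of Nfic, Nfix or Tcf3 would not appear.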
